A study of Mus musculus with 4 samples.

Results

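The adenosine and extracellular ATP pathway was described through 8 genes, Entpd1, Nt5e, Adora2a, Ada, Adk, P2rx7, Art2b and Slc29a1, chosen by their symbols from the 55536 annotated genes of the deposited tables. All 8 were found by symbol, and all 8 reached a mean of 10 counts, as did 13045 genes in all. The cells were regulatory T cells (Treg) labelled as inflammation-experienced, from a male adult mouse aged 6 months of the strain labelled Foxp3CreERT2 x Rosa26YFP. In such a strain an inducible Cre recombinase is expressed from Foxp3, the gene of the transcription factor that defines Treg, and a yellow fluorescent protein reporter lies at Rosa26. The labels name a bone marrow hematopoietic cell as the origin of the primary cells, and give neither the inflammatory stimulus nor the gate. PolyA-selected RNA was sequenced in 4 libraries, which the labels call technical replicates 1 to 4 of biological replicate 1. There is 1 group, with no resting or non-Treg control, so levels are described and no condition is compared. The levels are of RNA, and neither protein nor enzyme activity was measured. Every SD and p-value here covers the spread between libraries of 1 biological sample, not between mice.

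ATP that leaves stressed or dying cells is cleaved on the cell surface in steps. CD39, encoded by Entpd1, removes phosphates from ATP and ADP to give AMP, and CD73, encoded by Nt5e, turns AMP into adenosine. Adenosine acts on G protein-coupled receptors, of which the one encoded by Adora2a raises cyclic AMP in T cells, and it is removed by uptake through the equilibrative transporter ENT1 (Slc29a1), by phosphorylation in adenosine kinase (Adk) or by deamination in adenosine deaminase (Ada). Uncleaved ATP can open the P2X7 channel (P2rx7). On mouse T cells the ectoenzyme ART2.2 (Art2b) uses extracellular NAD to attach ADP-ribose to P2X7, which opens the channel at low ATP. CD39 and CD73 are well-known surface proteins of mouse Treg.

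Library totals were 9284432, 9341328, 9325636 and 6648385 expected counts in genes for libraries 1 to 4. All 8 genes of the T cell and Treg marker list were at 10 TPM or more in every library, and their summed level lay between 5907 and 6648 TPM. TPM is transcript abundance, counts divided by transcript length and scaled to the same total in each library. Most of that sum came from Trac and Cd3e, with means of 3084 and 1385 TPM, so it does not show the spread of single markers. Foxp3 was at 20.3, 21.69, 32.81 and 36.4 TPM in libraries 1 to 4. Cd4 was at 516, 495.2, 308.8 and 318.1 TPM, and Ikzf2 at 279.3, 349.9, 562.2 and 457.4 TPM. The 8 B cell markers summed to 202.5, 135.6, 94.57 and 164 TPM, with 6 of 8 at 1 TPM or more in every library. The 8 monocyte and macrophage markers summed to 32.34, 11.35, 8.11 and 19.69 TPM, with 2 of 8 at that level. The 9 erythroid and megakaryocyte markers summed to 1068, 5.58, 39.3 and 18.87 TPM, with 1 of 9 at that level. The 8 markers of CD8 T and NK cells summed to between 17.42 and 31.05 TPM and the 6 of dendritic cells to between 2.21 and 7.48 TPM. Granulocyte and mast cell markers summed to between 0.27 and 9.91 TPM and stromal and endothelial markers to between 0.82 and 2.03 TPM, with none of either list at 1 TPM in every library. Library 1 was thus the highest in B cell, myeloid and erythroid markers; the part of those cells in the levels below was not tested. In a bulk sample, fewer cells that carry a transcript and less of it per cell cannot be told apart.

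The 8 genes spanned a wide range of levels, from 245 ± 27.8 TPM for Nt5e (SD, n = 4 libraries, as for every ± below) to 7.77 ± 1.52 TPM for Ada. All 8 were at 1 TPM or more in every library, which 45.2% of 22015 nuclear protein-coding genes were, and 7 of 8 were at 10 TPM or more in every library, which 28.1% were. Counted down from the highest nuclear protein-coding gene, Nt5e stood at rank 466, Art2b at 852, Slc29a1 at 1293 and Adk at 1308. P2rx7 followed at rank 1645, Entpd1 at 3438, Adora2a at 4774 and Ada at 7507, where 10552 such genes had a mean of 1 TPM or more. The order by mean TPM was therefore Nt5e, Art2b, Slc29a1, Adk, P2rx7, Entpd1, Adora2a and Ada.

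**Figure D1:**
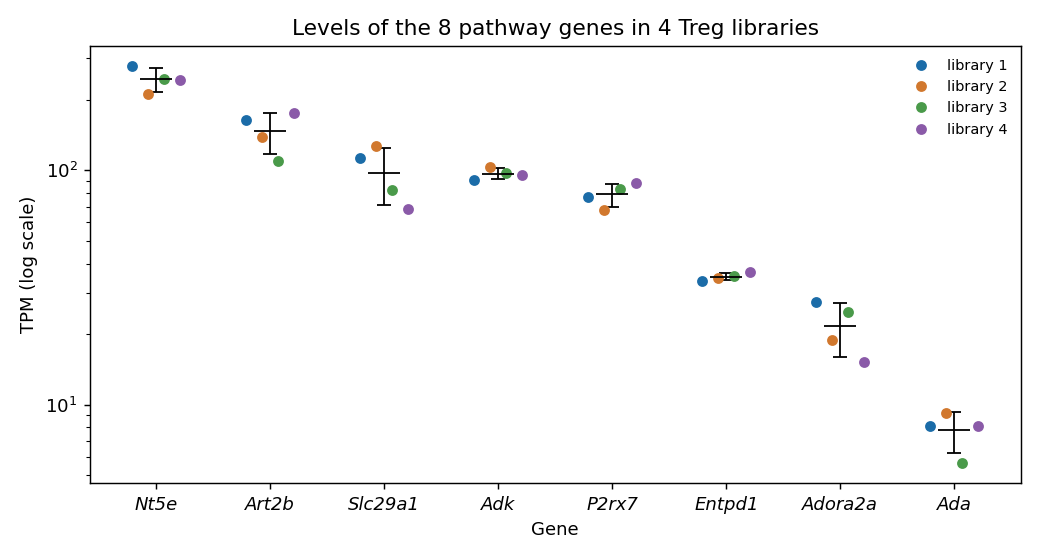
TPM of the 8 genes on a log axis, 1 point per library, with the mean (bar) and SD (whiskers) of the 4 libraries. Nt5e lies highest, between 210.9 and 279 TPM, Entpd1 has the narrowest range, between 33.79 and 36.83 TPM, and the points of Slc29a1 overlap those of Art2b and Adk.

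The genes of the ectoenzymes that make adenosine stood far apart in transcript level. Entpd1 (ENSMUSG00000048120.16, mm10 chr19:40612366-40741602, plus strand) was at 33.79, 34.74, 35.46 and 36.83 TPM in libraries 1 to 4, a mean of 35.2 ± 1.28. Its 4 values lay close together, with a coefficient of variation of 3.64%. Nt5e (ENSMUSG00000032420.8, mm10 chr9:88327197-88372092, plus strand) was at 279, 210.9, 246.3 and 241.7 TPM, highest in library 1 and lowest in library 2. Nt5e exceeded Entpd1 in 4 of 4 libraries, by 6.06- to 8.24-fold and by 2.79 ± 0.19 on the log2(TPM + 0.1) scale (exact two-sided sign-flip permutation test, p = 0.125, the smallest that 4 libraries allow; adjusted over 5 pathway pairs, 0.125). The mean ratio was 6.9-fold in the main table, 4.36-fold in the table made directly from reads and 5.27-fold in the counts on the older annotation. Over protein-coding transcripts alone, a choice made after seeing the data, it was 8.17-fold, with a range of 7.6 to 9.31.

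The receptor for adenosine was present at a lower level. Adora2a (ENSMUSG00000020178.6, mm10 chr10:75316877-75334784, plus strand) was at 27.37, 18.86, 24.79 and 15.21 TPM, a mean of 21.6 ± 5.53. Library 1 was the highest and library 4 the lowest, on 452, 360, 365 and 194 counts. Libraries 2 and 3 were alike for the transcript Adora2a-201, at 18.86 and 18.84 TPM; the 538-base fragment Adora2a-203 had 0 and 5.95 TPM there. In the main table it was the only adenosine receptor gene above 1 TPM: Adora1, Adora2b and Adora3 had means of 0.025, 0.105 and 0.185 TPM and at most 4 counts in any library, though Adora3 had a mean of 1.2 TPM in the table made from reads. A count of 0 allows up to 3 counts, or 0.323, 0.321, 0.322 and 0.451 CPM (counts scaled to the same total in each library) in libraries 1 to 4 (counting error only).

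P2rx7, the ATP-gated channel, and Art2b, the enzyme that ADP-ribosylates it, were both above Entpd1 in the main table. P2rx7 (ENSMUSG00000029468.17, mm10 chr5:122643911-122691432, plus strand) was at 76.7, 67.59, 82.99 and 88.3 TPM, a mean of 78.9 ± 8.9. Art2b (ENSMUSG00000030651.5, mm10 chr7:101576970-101585600, minus strand) was at 164.2, 138.4, 109.2 and 174.7 TPM, a mean of 147 ± 29.3. Library 4 was the highest for both genes, library 2 the lowest for P2rx7 and library 3 for Art2b, and the 2 genes' ranges did not overlap. P2rx7 was below Art2b in 4 of 4 libraries, with a log2 ratio of -0.88 ± 0.32, and Entpd1 was below P2rx7 in 4 of 4, with a log2 ratio of -1.16 ± 0.14 (exact sign-flip permutation test for each, p = 0.125). The log2 ratio of Entpd1 to P2rx7 was smaller in size elsewhere, -0.44 in the table made from reads and -0.51 in the counts on the older annotation.

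The genes that clear adenosine were unequal. Slc29a1 (ENSMUSG00000023942.15, mm10 chr17:45585200-45599606, minus strand) was at 112.4, 127.4, 82.33 and 68.66 TPM, a mean of 97.7 ± 27. Libraries 1 and 2 were high and libraries 3 and 4 low. Adk (ENSMUSG00000039197.10, mm10 chr14:21052574-21448569, plus strand) was at 91.11, 103.5, 97.15 and 95.48 TPM, a mean of 96.8 ± 5.15, with little spread. Ada (ENSMUSG00000017697.3, mm10 chr2:163726584-163750239, minus strand) was at 8.1, 9.21, 5.62 and 8.15 TPM on 87, 106, 65 and 67 counts, the lowest of the 8 genes in every library. By TPM, Adk thus exceeded Ada in 4 of 4 libraries. The log2 ratio of Ada to Adk was -3.64 ± 0.3, and Ada stood at 0.0588 to 0.0899 of Adk (exact sign-flip permutation test, p = 0.125). Adora2a lay below Slc29a1 by a log2 ratio of -2.17 ± 0.43 in 4 of 4 libraries, with the same p.

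Of the 7 neighbouring pairs in the order of levels, 5 had ranges that did not overlap between libraries. The log2 ratio was 0.75 ± 0.3 for Nt5e over Art2b, 0.3 ± 0.22 for Adk over P2rx7, 1.16 ± 0.14 for P2rx7 over Entpd1, 0.74 ± 0.43 for Entpd1 over Adora2a and 1.45 ± 0.59 for Adora2a over Ada. Each held its sign in 4 of 4 libraries, and the exact sign-flip permutation p was 0.125 for each (adjusted over 7 pairs, 0.146), so that none could pass 0.05. The pairs were ordered by mean TPM in these same libraries, so the direction of each ratio was set by the values tested. In the counts on the older annotation Adk over P2rx7 was larger, 0.94 ± 0.2, and P2rx7 over Entpd1 smaller, 0.51 ± 0.19. Art2b over Slc29a1, 0.6 ± 0.53, kept its sign in 4 of 4 libraries while the ranges overlapped, and its mean was -0.19 ± 0.62 in the counts on the older annotation. Slc29a1 and Adk could not be ordered: the log2 ratio was -0.03 ± 0.39, positive in 2 of 4 libraries, with an exact permutation p of 1.

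For 7 of the 8 genes the share of counts differed between libraries beyond counting error, against 68.6% of the 13045 genes tested (edgeR likelihood ratio test with dispersion fixed at 0, adjusted p under 0.05). A count of 7 of 8 is near that background. Slc29a1 varied most, with CPM 2.34-fold higher in library 2 than in library 4 (edgeR adjusted p = 3.1e-88). This ratio and those below use CPM on library sizes adjusted by TMM, an edgeR scaling. On total counts it was 2.21 for Slc29a1, 1.63 for Ada and 1.38 for P2rx7. The median gene tested had a ratio of 1.49 between its highest and lowest library. Among 5082 tested genes with a mean count of 300 to 7000, the median ratio was 1.34 and 87.9% differed between libraries. All members but Ada had mean counts in that range. Ada had a ratio of 1.75, Adora2a 1.72 and Art2b 1.48; P2rx7 had 1.31, Adk 1.3 and Nt5e 1.16. Entpd1, at 1.15, did not pass (edgeR adjusted p = 0.114). Without library 1 the edgeR adjusted p of Nt5e was 0.197, and that of Ada was 0.0723 without library 2 and 0.347 without library 3; 6 of 8 genes then passed, against 53.9%, 55% and 60.6% of all genes. Without library 4 the count was 7 of 8 against 62%. It was also 7 of 8 with DESeq2 size factors (68.5% of all genes), total counts (69.2%), no filter on low counts (37.2%) and the counts on the older annotation (78.5%), and 8 of 8 with the table made from reads (62.5%). By CPM the genes did not share a highest library: 3 were highest in library 1, 3 in library 2, none in library 3 and 2 in library 4. Entpd1 was highest in library 1 by CPM, and lowest there by TPM.

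By mean TPM in the main table, 5 of the 8 genes had several transcripts with at least 10% each, and 7 of 8 had when a share of 10% in the table made from reads also counted. Among them are forms of P2rx7, Adk and Entpd1 that begin in different exons and so differ in the first codons of the protein. The first coding exons of these forms are shown because they are where the forms part; each is from the GENCODE M21 transcripts, mm10, plus strand, with the start codon in capitals. The exons lie at chr5:122644074-122644198 (P2rx7-203) and chr5:122650424-122650539 (P2rx7-208), at chr14:21052639-21052700 (Adk-201) and chr14:21076308-21076321 (Adk-207), and at chr19:40612421-40612523 (Entpd1-204) and chr19:40659885-40659900 (Entpd1-201).
P2rx7-203: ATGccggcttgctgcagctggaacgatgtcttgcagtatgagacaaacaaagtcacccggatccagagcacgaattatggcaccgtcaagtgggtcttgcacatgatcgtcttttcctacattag
P2rx7-208: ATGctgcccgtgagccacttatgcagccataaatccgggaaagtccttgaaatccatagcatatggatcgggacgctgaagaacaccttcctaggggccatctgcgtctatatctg
Adk-201: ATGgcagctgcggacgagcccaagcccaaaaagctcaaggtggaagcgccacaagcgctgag
Adk-207: ATGacgtccaccag
Entpd1-204: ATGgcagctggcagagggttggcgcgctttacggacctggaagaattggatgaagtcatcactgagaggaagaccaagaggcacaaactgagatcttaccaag
Entpd1-201: ATGgaagatataaagg

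The P2rx7 transcript with the alternative first exon held a minority of the gene's estimated TPM. P2rx7-203, which encodes the full-length channel in 595 codons (stop codons are left out of these counts), was at 30.71, 19.6, 21.15 and 29.48 TPM. P2rx7-208, whose first exon lies inside the first intron of P2rx7-203 and which has 592 codons, was at 11.74, 7.68, 14.99 and 10.64 TPM. Rodent T cells are known to use an alternative first exon of P2X7 whose protein is more sensitive to ADP-ribosylation; the annotation used here does not say whether P2rx7-208 is that form. P2rx7-208 was below P2rx7-203 in 4 of 4 libraries of the main table, where P2rx7-203 exceeded it by 1.41- to 2.77-fold. In the table made directly from reads the same ratio was 0.827 to 1.4, and below 1 in library 3, so the excess of P2rx7-203 held in 3 of 4 libraries there. All transcripts that start in the first exon of P2rx7-203 held 47.3% of the gene's TPM against 14.2% for P2rx7-208 in the main table, and 49% against 23.8% in the table made from reads. P2rx7-203 has 2988 exonic bases from its stop codon on and P2rx7-208 has 72, and 1732 of the 1848 bases of P2rx7-208 are also exonic in P2rx7-203. Only 116 bases of P2rx7-208 lie outside P2rx7-203. P2rx7-205, with 37.7% of the gene's TPM in the main table, starts in the last exon and does not tell the first exons apart. The split between the 2 forms is thus a model estimate that depends on their annotated ends, and first-exon use was not measured directly.

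**Figure D2:**
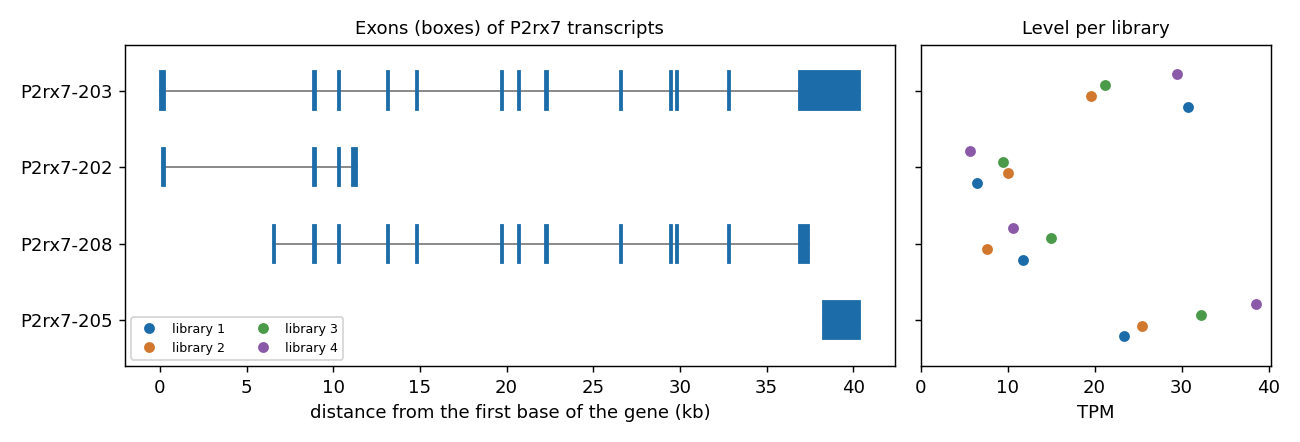
Left, exons (boxes) of 4 P2rx7 transcripts by distance in kb from the first base of the gene; right, TPM of each in the 4 libraries. P2rx7-203 and P2rx7-208 differ in the first exon and the length of the last, and P2rx7-205 lies wholly inside the last exon of P2rx7-203.

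The P2rx7 transcript with the highest mean TPM share in the main table was P2rx7-205, annotated as a retained intron, with 30.45, 37.7, 38.82 and 43.69% of the gene's TPM. In library 1 P2rx7-203 was above it, with 40.04%. In the table made from reads the mean shares were close, 27.3% for P2rx7-203 and 27% for P2rx7-205. All 2103 bases of P2rx7-205 are exonic in P2rx7-203, so no base sets it apart. By expected counts P2rx7-203 led instead, with 56.9 ± 6.69% against 27.6 ± 4.92% for P2rx7-205. P2rx7-202, a short coding form with 428 of its 712 bases shared with P2rx7-203, held 10.3 ± 3.61% of TPM. Coding transcripts held 61.1 ± 4.91% of the gene's TPM, near the lower quartile of 60.5% over 6864 coding genes at a mean of 10 TPM or more, whose median was 84.5%. P2rx7 was at 48 ± 4.43 TPM over its coding transcripts alone.

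Adk was led by the form with the shorter start. Adk-207, of 345 codons, was at 46.17, 51.45, 55.83 and 58.12 TPM, and Adk-201, of 361 codons, at 18.8, 24.29, 11.7 and 15.81 TPM. The long form of adenosine kinase is known as nuclear and the short form as cytoplasmic. Adk-207 was above Adk-201 in every library, by 2.12- to 4.77-fold in the main table and by 2.75- to 4.24-fold in the table made directly from reads. In the main table the ratio was larger in libraries 3 and 4 than in libraries 1 and 2, which the table made from reads did not show, with 4.18, 2.75, 4.24 and 3.97. The starts were closer when all transcripts were counted. The 6 that start in the first exon group of Adk-201, 2 of them coding, held 36.1% of the gene's TPM against 54.7% for Adk-207. In the table made from reads the shares were 41.8% against 47%, and in library 2 the order was reversed there, 48.6% against 47.3%.

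Entpd1 drew on both starts. Entpd1-204, of 539 codons, held 59.76, 40.49, 41.03 and 32.09% of the gene's TPM, and Entpd1-201, of 510 codons, held 29.44, 27.57, 29.55 and 25.98%. By TPM in the main table Entpd1-204 was thus highest in library 1, whereas in the table made from reads its share was 23.2, 27.6, 17.1 and 15.8%, highest in library 2. The order depended on the unit: by TPM Entpd1-204 exceeded Entpd1-201 by 1.24- to 2.03-fold, and by expected counts the ratio was 0.683 to 1.12. Entpd1-201 is 4221 bases long and Entpd1-204 is 2409, of which 2282 are shared. Another transcript, Entpd1-208, of 204 bases and annotated as not coding, had 0, 2, 2 and 2 expected counts and 0, 16.2, 16.19 and 20.77% of the gene's TPM. In the table made directly from reads it held 44.4% of the TPM, and the mean of Entpd1 was 54.2 ± 7.26 TPM. Over coding transcripts alone, the mean was 25.7 ± 3.7 TPM in the main table and 19.2 ± 2.44 TPM in the table made from reads. In the main table these coding levels were 30.15, 24.51, 26.86 and 21.39 TPM, so the narrow spread of the whole-gene level was not shared by the coding transcripts. The gene is tagged in the annotation as an overlapping locus, and the strand setting of the counting is not given in the sources used here.

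Art2b was divided evenly by TPM and unevenly by counts. Art2b-201, of 870 bases, held 51.9 ± 3.22% of TPM and 22.2 ± 2.23% of counts, and Art2b-202, of 2819 bases, held the rest. Of the bases of Art2b-201, 861 are also exonic in Art2b-202 and 9 are not. The annotated Art2b-201 ends at its stop codon, with 3 exonic bases from there on against 1893 for Art2b-202. The even split by TPM thus depends on the short annotated length of Art2b-201, and use of the 2 forms was not measured directly. Art2b has a close relative, Art2a-ps (ENSMUSG00000092517.1, mm10 chr7:101552453-101560865, minus strand), a polymorphic pseudogene at 17.76, 11.93, 20.97 and 26.8 TPM. The transcripts of the 2 genes aligned with 1037 of 1191 bases identical (87.1%), and 11.6% of the 50-base stretches of Art2a-ps occurred unchanged in Art2b-202, so reads from those stretches could match both genes. Art2a-ps stood at 10.81, 8.62, 19.2 and 15.34% of the TPM of Art2b. By counts it stood at 8.9 ± 3% of Art2b in the expected counts and at 24 ± 9.89% on the older annotation. The split between both genes is therefore uncertain, and the sum of both was 166 ± 31.9 TPM.

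The other 4 genes were simpler, apart from Slc29a1. Ada-201 held 98.8 ± 2.39% of the TPM of Ada, Adora2a-201 held 92 ± 10.9% for its gene and Nt5e-201 held 85.8 ± 3.44%. Adora2a-203, a fragment of 538 bases, held 24% in library 3 and between 0 and 4.38% elsewhere. Nt5e-204, of 280 bases and not coding, had 5.1% of TPM in the main table and 25% in the table made from reads. Slc29a1 was led by Slc29a1-202 with 47.1 ± 4.05%. Slc29a1-213 held 13.24, 31.23, 24.36 and 18.83% and Slc29a1-203 held 14.8, 2.65, 3.49 and 11.83%. In the table made from reads Slc29a1-213 held 18.2, 11.6, 12.9 and 11.9% and Slc29a1-203 held 13.3, 21.4, 13.4 and 15%, so neither the order of these 2 forms nor their pattern over libraries was shared by both tables. Transcripts that start in the exon group of Slc29a1-202 held 58.1 ± 3.55%.

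**Figure D3:**
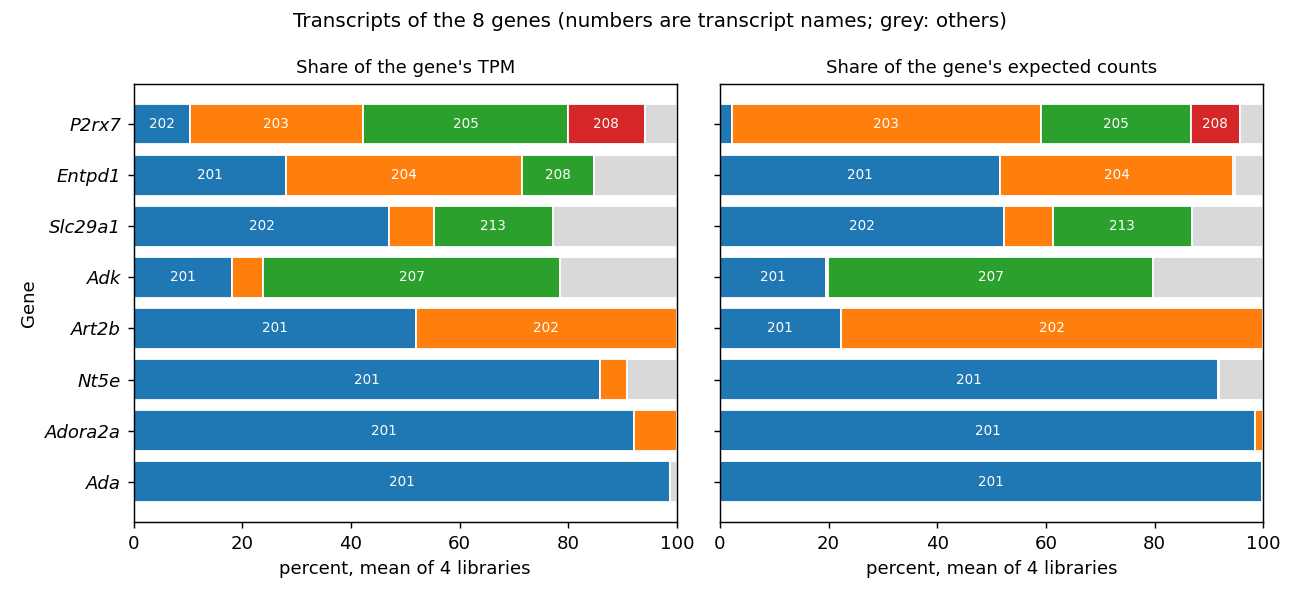
Mean percent of each gene's TPM (left) and expected counts (right) by transcript over the 4 libraries, for transcripts with at least 10% of TPM in either transcript table; grey is the rest. Here a single transcript holds 85.8% or more of the TPM of Ada, Adora2a and Nt5e, and short transcripts such as Entpd1-208 and P2rx7-202 take a larger part of TPM than of counts.

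The other quantifications moved some levels. Relative to the main table, the median log2 difference over 9717 genes was 0.05 in the counts on the older annotation (10th to 90th percentile, -1.22 to 0.7) and -0.15 in the table made from reads (-0.35 to 0.34). Entpd1 was 0.61 higher in the table made from reads, a difference above that of 95.4% of genes, and the other 7 members stayed within the 10th to 90th percentile. In the counts on the older annotation all 8 lay within it. Ada was 0.61 higher there, with 1.68 to 1.92 counts for each expected count, and P2rx7 was 0.59 lower, with 0.74 to 0.812, where the median gene had 1.21. The cause of these differences was not tested.

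**Figure D4:**
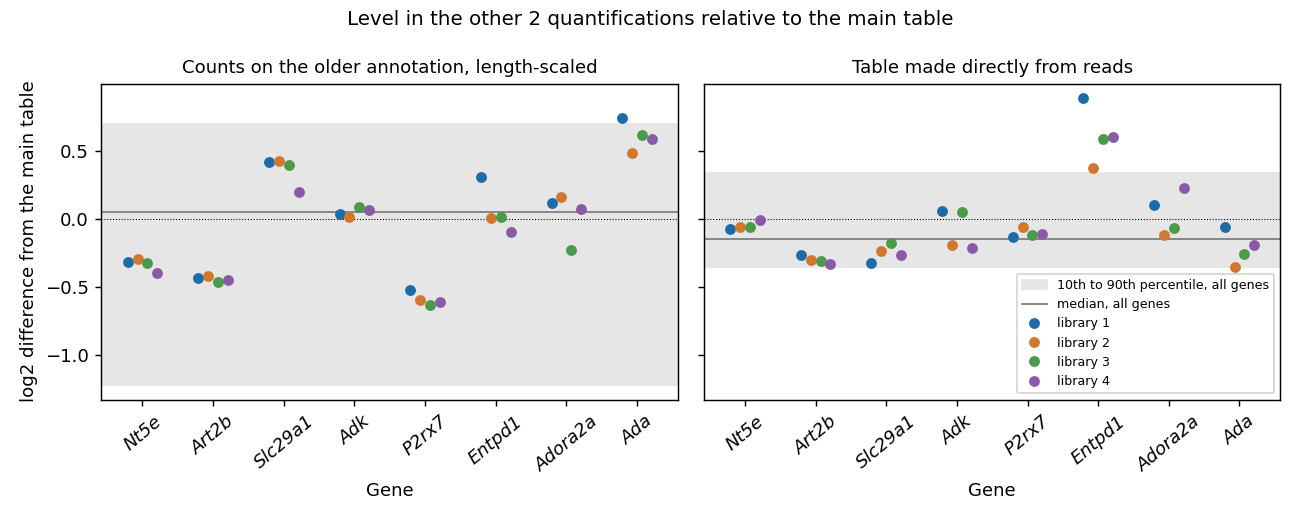
Log2 difference of each gene's level from the main table, per library, for the length-scaled counts on the older annotation (left) and the table made directly from reads (right). The grey band is the 10th to 90th percentile over 9717 genes; Entpd1 at right is the only one of the 8 genes with all 4 points above it.

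The surrounding pathway was read from 10 lists with 64 genes, 63 of them matched. At 1 TPM or more in every library were 33 of 63 (52.4%), against 45.2% of coding genes, and 23 of 63 were at 10 TPM or more in every library. The median was 1.96 TPM. Of 34 tested, 27 (79.4%) differed between libraries in the edgeR test, against 68.6% of all genes, and 7 did not pass. Among tested genes with a mean count of 300 to 7000, a range that holds only some of the 34, the share was 87.9%.

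Among receptors for ATP and related nucleotides, few beside P2rx7 were detected. P2rx4, an ATP-gated channel encoded near P2rx7, was at 32.28, 43.16, 34.93 and 37.98 TPM, and it was the only 1 of the 6 other P2X genes at 1 TPM in every library. P2rx5 had a mean of 0.203 TPM, P2rx1 and P2rx3 had 1 count each in 1 library, and P2rx2 and P2rx6 had 0 counts in all 4. Of 8 P2Y genes, 2 were at 1 TPM in every library: P2ry10, a receptor grouped with this family and known for lysophospholipids, at 66.6 ± 10.1 TPM, and P2ry14, a receptor for UDP-sugars, at 1.66 ± 0.61 TPM.

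Transcripts of other ectonucleotidases were sparse. Of 7 further ectonucleotidases, 2 were at 1 TPM in every library: Enpp1, which cleaves ATP to AMP and pyrophosphate, at 9.89 ± 1.12 TPM, and Acpp, a phosphatase that can make adenosine from AMP, at 3.47 ± 1.62 TPM. The intracellular ENTPD enzymes Entpd6 and Entpd5 were at 30.9 ± 3.6 and 24.7 ± 9.96 TPM, and all 4 of that list were at 1 TPM or more in every library. Cd38, which consumes the NAD that ART2.2 uses, was at 44.84, 43.25, 55.79 and 57.03 TPM, higher in libraries 3 and 4. Of the 7 genes of the NAD list, 4 were at 1 TPM in every library and all 4 tested differed between libraries, where 68.6% of all genes tested did. Panx1, a channel that releases ATP, was at 14.5 ± 2.81 TPM, and the sheddases Adam10 and Adam17 were at 54.9 ± 12 and 47.2 ± 10.7 TPM.

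Some nucleoside transporter genes beside Slc29a1 had transcripts at 1 TPM or more in every library. Slc28a2, a sodium-dependent transporter that prefers purine nucleosides, was at 109.7, 105.6, 83.31 and 74.54 TPM, high in libraries 1 and 2 as was Slc29a1. Slc29a3, which acts in lysosomes, was at 15.7 ± 3.81 TPM, and 3 of the 6 transporters were at 1 TPM in every library. Inside the cell, the nucleotidases Nt5c, Nt5c3b, Nt5c3 and Nt5c2 were at 204 ± 20.8, 102 ± 10.8, 44.2 ± 3.05 and 29 ± 2.42 TPM, while Nt5c1a and Nt5c1b, which act on AMP in the cytosol, had 0 counts in every library. Of 7 such genes, 5 were at 1 TPM in every library and 3 of 5 tested differed between libraries, where 68.6% of all genes tested did.

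Most genes that handle adenosine and AMP downstream were present, 9 of 12 at 1 TPM in every library and 8 at 10 TPM. The purine salvage genes Hprt and Aprt were at 205 ± 18.9 and 157 ± 14 TPM, and Pnp, which cleaves inosine, was at 50.4 ± 5.39 TPM. Dpp4, or CD26, which binds adenosine deaminase at the surface in humans, was at 78.3 ± 1.63 TPM. Ahcy, which releases adenosine from S-adenosylhomocysteine, was at 30.5 ± 1.51 TPM, Xdh, which makes uric acid, at 30.4 ± 3.58, the AMP deaminase Ampd2 at 22.4 ± 5.49, and the deaminase-like gene Adal at 13.6 ± 0.88 TPM. All 9 tested genes of this list differed between libraries, where 68.6% of all genes tested did.

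**Figure D5:**
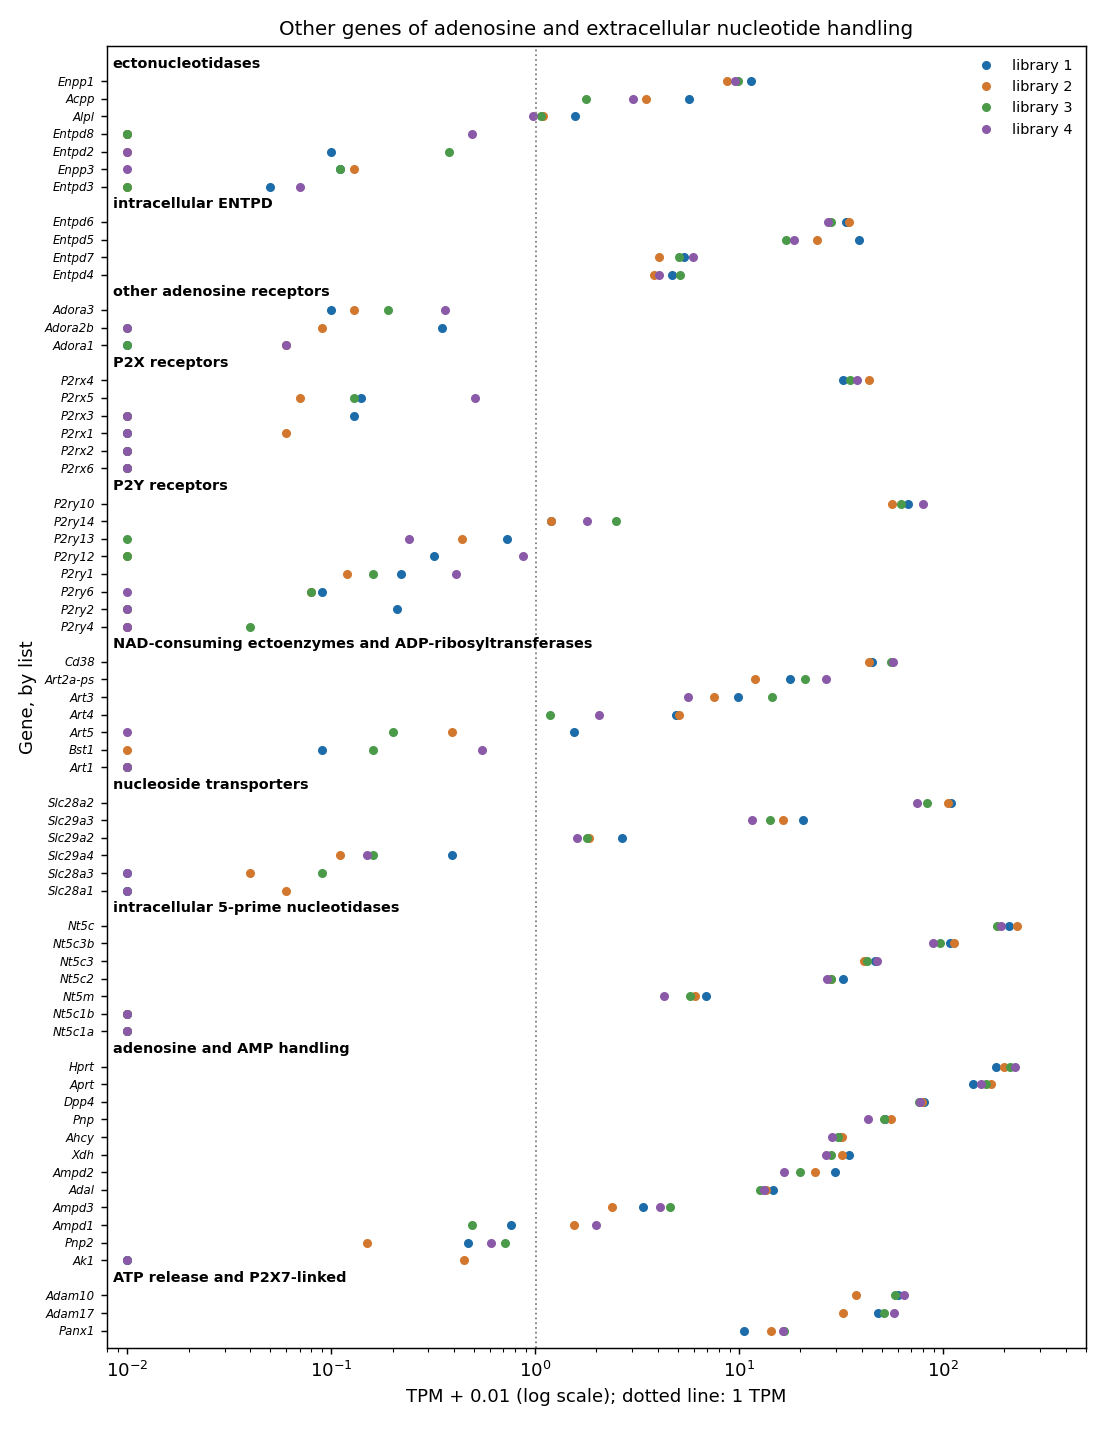
TPM plus a small offset, on a log axis, of 63 other genes of adenosine and nucleotide handling, by list, 1 point per library; the dotted line is 1 TPM. The adenosine receptors other than Adora2a and 5 of the 6 P2X genes beside P2rx7 lie left of the line, while 8 of the 12 adenosine and AMP handling genes exceed 10 TPM.

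The genes nearest in level to the highest members were found by the smallest maximum difference in log2(TPM + 0.1) over the 4 libraries. For Nt5e these were Evl (0.09) and Sdcbp (0.09), for Art2b 9930111J21Rik2 (0.19) and Hsp90b1 (0.25), and for Slc29a1 Arhgap25 (0.11) and Phgdh (0.12). These are matches in level over 4 libraries of 1 sample.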

How the data were processed

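PolyA RNA-seq libraries, 4 technical replicates of 1 biological sample, were analysed as 1 group; the labels number them. The authors deposited, per the file headers, expected counts, TPM and percent of each gene's TPM for genes and transcripts (GENCODE M21, mm10, from transcriptome alignments, per the notes beside the files). The authors also deposited estimated counts and TPM per transcript made directly from reads (M21), and whole-number gene counts made from genome alignments (M4). The programs and strand setting were not given in the sources used here. Column totals gave the depth.

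TPM was used as deposited for levels and shares. Reads-table TPM was scaled to the main table's total over nuclear coding genes; M4 counts were divided by effective length (at least 50 bases) and scaled over 22195 matched genes. Rounded expected counts of genes with a mean of at least 10 were tested across libraries with edgeR 4.0.16 (R 4.3.3; TMM, dispersion 0, likelihood ratio test, Benjamini-Hochberg), a test of counting error alone, first checked on simulated data. Member pairs were tested by exact two-sided sign-flip permutation of log2(TPM + 0.1) differences (scipy 1.17.1). Alternatives were DESeq2 1.42.0 size factors, total counts, no count filter, both other quantifications, a pseudocount of 1 and leaving out each library. Named genes were the 8 members, other pathway genes at a mean of 10 TPM or more, all Adora and P2rx genes, transcripts with a share of 10% or more in either transcript table, and for the 3 highest members the 2 coding genes nearest in level; P2ry14, Enpp1, Acpp, Nt5c1a and Nt5c1b were added after their values were seen. One listed gene is not reported here. The members and lists were chosen with earlier results of these data known. Exons and sequences came from GENCODE M21.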

Additional observations from a re-analysis of the deposited data

Results flagged for a closer look

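Among 59 values examined over the 4 libraries, 4 had a library far from the other 3; chance gives about 1 in 20, a share that does not apply to a value at 0, or at 100%, in the other 3 libraries, whose ratio is 1 by construction. Ada-201 held 95.2% of the TPM of Ada in library 2 and 100% in the others, so that the gap to the nearest library was the whole range (ratio 1). P2rx1 was at 0.05 TPM in library 2 and 0 elsewhere, and P2rx3 at 0.12 TPM in library 1 and 0 elsewhere, each a single count (ratio 1 for both). P2rx5 was at 0.5 TPM in library 4, on 6 counts, with 0.13 TPM the nearest value (gap over range 0.841).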

How the results depend on the processing

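No paired analysis was possible because there is 1 group. The order of the 28 pairs of members held in 27 with the table made from reads, 27 with the counts on the older annotation, 26 with CPM, which is not divided by length, and 27 to 28 when each library was left out. The log2 ratio of Slc29a1 over Adk changed sign, to 0.28 with the older annotation, to 0.0996 over protein-coding transcripts alone, and ranged from -0.14 to 0.12 when each library was left out, being above 0 without library 3 or 4. That of Art2b over Slc29a1 became -0.19 with the older annotation. The leading transcript was the same for 5 of 8 genes in the table made from reads and for 5 by expected counts. The cause of these changes was not tested. Mean levels moved by more than 1 SD for 6 of 8 genes with the older annotation and 1 (Entpd1) with the table made from reads. Leaving out a library moved none by that much, which with 4 libraries it cannot do. With CPM all 8 moved, but CPM is another unit than TPM, so that count does not measure a dependence on processing. Over coding transcripts alone, a part of the whole-gene level, 4 moved. Adora2a and Art2b have only coding transcripts, so theirs could not move. The threshold of 10 TPM in place of 1 left 23 of 33 pathway genes. Without the count filter 9580 of 25782 genes differed between libraries, against 8945 of 13045 with it. The restriction to coding transcripts was chosen after seeing the data. Ada, on 65 to 106 counts per library, and the receptors near 0 are the values most limited by depth.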
